A study of Homo sapiens with 6 samples.

Results

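The human alkaline phosphatase family has 4 genes, ALPP, ALPG, ALPI and ALPL, and all 4 were measured, each by 1 of 33497 array features. They were compared between SW480 cells, a human colorectal adenocarcinoma line, that carried the empty pBabe vector and SW480 cells with a FOXC2 construct, both brought in by retrovirus. FOXC2 encodes a transcription factor of the forkhead family. Each group held 3 single-colour NimbleGen arrays, 1 for each of 3 separate cultures. Both groups were grown with 10% serum, selected for 3 to 5 days in puromycin (0.5 μg/mL) and taken at 90% confluence. The labels do not say whether the cultures of a group came from separate transductions, so the spread given here is that between cultures.

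The family was chosen by the low values of ALPP and ALPG in the FOXC2 cells of this same comparison, and ALPI and ALPL were added as the remaining genes of the family. Their differences between FOXC2 and pBabe cells are therefore given as descriptions, with standard errors and no test. The standard error of a single gene is that of limma, which draws each feature's variance towards that of the other features. For each of these genes it is smaller than the printed SDs alone would give. All values are normalised intensities, or differences between their log2 values. A feature's brightness depends on its probes, so levels were not compared between genes.

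Alkaline phosphatases are zinc enzymes that release phosphate from many substrates. They work as dimers on the outer face of the plasma membrane, held there by a glycolipid (GPI) anchor. ALPP, the placental form, is abundant in the syncytiotrophoblast, and ALPG, the germ cell form, is known from testis and germ cell tumours. Both are also known to be switched on in some carcinomas. ALPI, the intestinal form, sits in the enterocyte brush border and inactivates bacterial lipopolysaccharide. ALPL, the tissue-nonspecific form of bone, liver and kidney, removes the mineralization inhibitor pyrophosphate and prepares vitamin B6 for uptake.

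ALPP, ALPG and ALPI lie next to each other on chromosome 2, with 3 pseudogenes and no other protein-coding gene between the first and the last of them in the RefSeq gene order. ALPL lies apart on chromosome 1. The start regions of the 3 neighbours are shown because ALPP and ALPG differed so much between the groups while ALPI, beside them, did not follow. They are RefSeq windows of GRCh38.p14 on the + strand, from 250 bases before to 50 bases after the annotated start. ALPP is at chr2:232378501-232378800, ALPG at chr2:232406594-232406893 and ALPI at chr2:232455903-232456202. Capitals mark the longest run of bases that all 3 windows share.
ALPP: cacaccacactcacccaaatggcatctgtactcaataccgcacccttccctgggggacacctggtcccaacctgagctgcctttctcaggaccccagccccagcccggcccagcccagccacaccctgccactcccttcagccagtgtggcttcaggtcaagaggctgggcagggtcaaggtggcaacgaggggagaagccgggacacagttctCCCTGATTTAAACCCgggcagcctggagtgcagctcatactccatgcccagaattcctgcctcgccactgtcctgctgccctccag
ALPG: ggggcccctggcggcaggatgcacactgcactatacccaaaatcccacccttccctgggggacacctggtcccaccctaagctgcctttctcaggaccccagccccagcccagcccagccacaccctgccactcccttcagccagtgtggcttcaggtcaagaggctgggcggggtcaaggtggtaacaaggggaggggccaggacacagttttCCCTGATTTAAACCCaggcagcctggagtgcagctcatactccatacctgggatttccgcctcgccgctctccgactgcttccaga
ALPI: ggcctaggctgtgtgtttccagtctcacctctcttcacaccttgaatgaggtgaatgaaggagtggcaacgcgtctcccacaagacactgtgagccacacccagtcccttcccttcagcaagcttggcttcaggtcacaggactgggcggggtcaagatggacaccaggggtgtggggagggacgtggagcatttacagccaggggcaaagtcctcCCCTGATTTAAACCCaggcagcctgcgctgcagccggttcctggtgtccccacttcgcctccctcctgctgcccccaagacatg

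The run in capitals was 15 bases long and began at base 215 of the ALPP and ALPG windows and base 217 of the ALPI window. Of 35116 RefSeq start windows, 3 held it, and they belonged to ALPP, ALPG and ALPI. That these 3 held it was fixed by how the run was chosen. How often other runs of this length recur among the windows was not computed. In a global alignment the ALPP and ALPG windows were identical in 254 of 307 columns, or 82.7%, and their longest shared run was 64 bases. ALPI was 59.8% identical to ALPP and 58.4% to ALPG. The 3 annotated start windows of ALPL were 46.96% to 51.03% identical to those of the other genes and 42.9% to 47.3% to each other. ALPI thus lay between ALPG and ALPL in identity to ALPP. The identity of unrelated windows was not computed, so the ALPL values are not read as likeness.

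Motifs were searched on both strands, as letters only. The motif TTTAAA, which resembles the usual TATA box and reads the same on both strands, occurred once in each of the ALPP, ALPG and ALPI windows, inside the capitals, and in 12.2% of all windows. The forkhead core was searched as TAAACA, which reads TGTTTA on the other strand and can overlap the previous motif. It was in none of these 3 windows, in 1 of the 3 ALPL windows and in 12.3% of all windows. The GC box core was searched as GGGCGG, which reads CCGCCC on the other strand. It was absent from the ALPP window and occurred once in that of ALPG and once in that of ALPI. It occurred 4 times in the second ALPL window, which was 82.3% G and C, and in 45.0% of all windows. ALPP and ALPG thus shared most of their start region, and ALPI shared its TATA-like run with them.

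ALPP had intensities of 9188, 7924 and 12844 in the pBabe cultures and 214, 308 and 619 in the FOXC2 cultures. All pBabe arrays were bright and all FOXC2 arrays dim, and even the nearest arrays of the groups were 12.8-fold apart. The log2 intensity was 13.26 ± 0.357 (SD, n = 3) in pBabe and 8.43 ± 0.779 (SD, n = 3) in FOXC2. The difference was -4.83 ± 0.387 (SE) on the log2 scale, a level 28.4-fold lower in FOXC2 cells.

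ALPG had intensities of 2766, 3599 and 3895 in pBabe and 98.0, 150.2 and 95.7 in FOXC2. Here too every pBabe array was far above every FOXC2 array, the nearest being 18.4-fold apart. The log2 intensity was 11.72 ± 0.258 (SD, n = 3) in pBabe and 6.81 ± 0.366 (SD, n = 3) in FOXC2. The difference was -4.92 ± 0.212 (SE), a level 30.2-fold lower in FOXC2 cells. The FOXC2 values of ALPG were near 50.002, the lowest intensity in the table, and no detection calls were used, so the size of its difference is uncertain. In these bulk cultures, fewer cells with the transcript and less transcript per cell cannot be told apart.

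ALPI had intensities of 161, 199 and 162 in pBabe and 379, 211 and 250.1 in FOXC2. The FOXC2 arrays were all higher, but FOXC2 replicate 2 was only 1.06-fold above pBabe replicate 2. The log2 intensity was 7.44 ± 0.173 (SD, n = 3) in pBabe and 8.09 ± 0.435 (SD, n = 3) in FOXC2, a difference of 0.65 ± 0.221 (SE). This value rested in part on FOXC2 replicate 1 and was 0.41 without it. ALPI was thus dim in both groups, and its difference had the opposite sign to those of ALPP and ALPG.

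ALPL had intensities of 1304, 1562 and 1288 in pBabe and 1595, 1205 and 1614 in FOXC2. The groups overlapped, with FOXC2 replicate 2 the lowest of the 6 arrays. The log2 intensity was 10.43 ± 0.156 (SD, n = 3) in pBabe and 10.51 ± 0.238 (SD, n = 3) in FOXC2. The difference of 0.08 ± 0.147 (SE) was smaller than its error, and it ranged from 0.01 to 0.22 when each array was left out in turn.

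**Figure D1:**
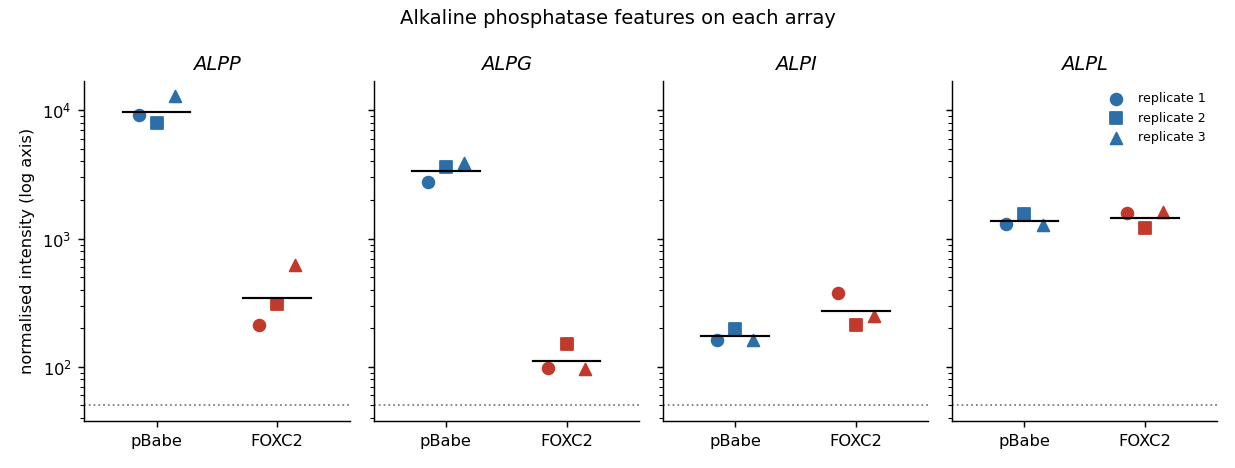
Normalised intensity (log axis) of the single feature of each alkaline phosphatase gene on the 3 pBabe (blue) and 3 FOXC2 (red) arrays, with the marker shape giving the replicate number, a bar at the geometric mean and a dotted line at 50.002, the lowest value in the table. ALPP and ALPG are high in pBabe and low in FOXC2, ALPI is dim in both groups, and ALPL overlaps.

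The groups did not overlap for 3 of the 4 genes, ALPP, ALPG and ALPI, where they did not for 45.5% of all features. Since this comparison chose the family, nothing is read from that count. For the other genes below, the call rule was a limma adjusted p under 0.05 over all features, which 26.3% of features met.

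The changes of ALPP and ALPG were alike in size. The SEs of differences between genes are ordinary ones that limma did not adjust. Taken array by array, the log2 fold changes of ALPP and ALPG differed by 0.09 ± 0.572 (SE), and those of ALPI and ALPL by 0.57 ± 0.184 (SE). ALPP differed from ALPI by -5.48 ± 0.687 (SE) and ALPG from ALPI by -5.57 ± 0.451 (SE). Within the chromosome 2 run, ALPI thus differed in sign from ALPP and ALPG, while the gap between ALPP and ALPG was within its error.

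Within the FOXC2 group ALPP and ALPG were not highest on the same array. ALPP was highest on FOXC2 replicate 3, 2.89-fold above replicate 1, whereas ALPG was lowest on replicate 3 and highest on replicate 2, 1.57-fold above it. ALPG replicates 1 and 3 were close, at 98.0 and 95.7, and near the lowest value in the table. With 3 arrays, whether these genes vary together in FOXC2 cells is not settled. In pBabe both were highest on replicate 3. The spread of ALPP within groups, which did not enter the choice of the family, was wide, with a pooled SD of 0.606 on the log2 scale against a median of 0.149 over all features, and 98.4% of features varied less. The pooled SD was 0.317 for ALPG, 0.331 for ALPI and 0.201 for ALPL, above 84.6%, 86.3% and 66.4% of features. The coding sequences of ALPP and ALPG are known to be nearly identical, so each feature may bind both transcripts. Probe sequences were not analysed here, so how far either feature reports its own gene alone was not tested.

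The size of the differences depended little on those settings tried that could move it. With each array left out in turn, ALPP lay between -5.25 and -4.48, its extremes coming without FOXC2 replicate 3 and without FOXC2 replicate 1. ALPG lay between -5.13 and -4.80. An offset of 16 before the logarithm, which shrinks differences of dim features, gave -4.76 for ALPP and -4.73 for ALPG. Either gene could thus show the larger difference, and their order was not settled.

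**Figure D2:**
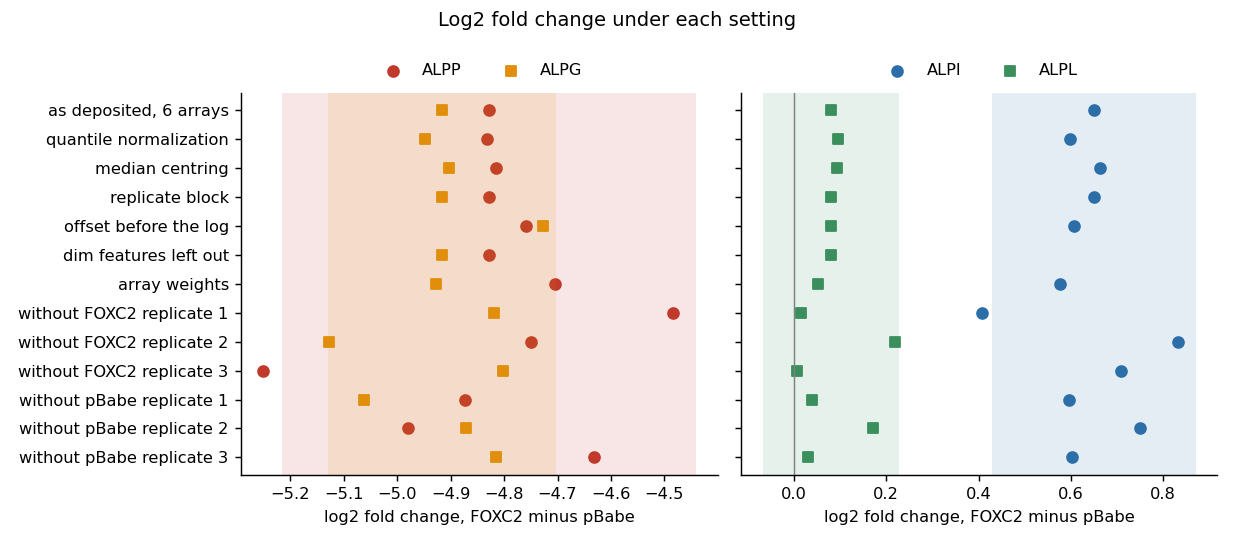
Log2 fold change (FOXC2 minus pBabe) of each alkaline phosphatase gene, on the horizontal axis, under each setting on the vertical axis, with bands of 1 standard error around the value from the deposited intensities. ALPP and ALPG stay between -5.25 and -4.48, while ALPI stays above 0.40 and ALPL between 0.01 and 0.22; ALPI has no point with dim features left out because it was among them.

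FOXC2 itself had mean intensities (geometric means, here and below) of 8458 in the FOXC2 cells and 2476 in pBabe, the direction that the labels give. The simple-epithelium keratins KRT8 and KRT18 were bright in both groups, with means of 32055 and 22691 in FOXC2 and 35384 and 27893 in pBabe. The adhesion molecule EPCAM had means of 3615 in FOXC2 and 711 in pBabe. E-cadherin, CDH1, was dim, at 200.5 in FOXC2 and 97.9 in pBabe. Array medians lay between 895 and 913, and the median log2 fold change over all features was 0.03. In all, 14.1% of the 12562 named genes rose and 14.3% fell, which is the background for the counts below. A gene rose or fell where its limma adjusted p was under 0.05.

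To see whether the falls reached past the alkaline phosphatase genes, the 5 nearest measured genes on either side were examined. Around ALPP, ALPG and ALPI, 3 of 10 rose and 0 fell (median log2 fold change 0.12). CHRND, a subunit of the muscle acetylcholine receptor, rose from a mean intensity of 191 to 836, a log2 fold change of 2.13 ± 0.149 (SE; limma adjusted p 2.03e-04). Its arrays read 158, 212 and 208 in pBabe against 769.7, 800.0 and 949 in FOXC2, with no overlap. ECEL1, an endothelin-converting-enzyme-like protease, rose by 0.49 ± 0.126 (SE; limma adjusted p 0.0304), and DIS3L2, an exoribonuclease, by 0.40 ± 0.108 (SE; limma adjusted p 0.0345).

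The calls of ECEL1 and DIS3L2 were fragile. ECEL1 was lost without FOXC2 replicate 1 or 2 or any 1 pBabe replicate, and DIS3L2 likewise, which left CHRND as the 1 riser. ECEL1 also lost its call with quantile normalization, at a limma adjusted p of 0.0798, and with a trended robust prior, at 0.168. The other 7 neighbours did not pass. They included PTMA at -0.0017, PDE6D at 0.13 and COPS7B at 0.09 on the far side of DIS3L2, NPPC at 0.50, and TIGD1 at 0.09, EIF4E2 at 0.11 and GIGYF2 at -0.20 beyond CHRND. The low values of ALPP and ALPG were thus not shared by these 10 neighbours, of which 0 fell.

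Around ALPL, 0 of 10 rose and 1 fell (median 0.12). The 1 that fell was HSPG2, the basement membrane proteoglycan perlecan, at -0.30 ± 0.0865 (SE; limma adjusted p 0.0434), a call that was lost whichever array was left out and with median centring (limma adjusted p 0.0506). ALPL lay between NBPF3, at -0.28, and RAP1GAP, an inactivator of RAP1, at 0.44, neither of which passed. These counts depended on the setting. With dim features left out, and likewise with a trended robust prior, 3 of the 10 rose (RAP1GAP, CDC42 and ECE1) and 3 fell (HSPG2, NBPF3 and KIF17).

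**Figure D3:**
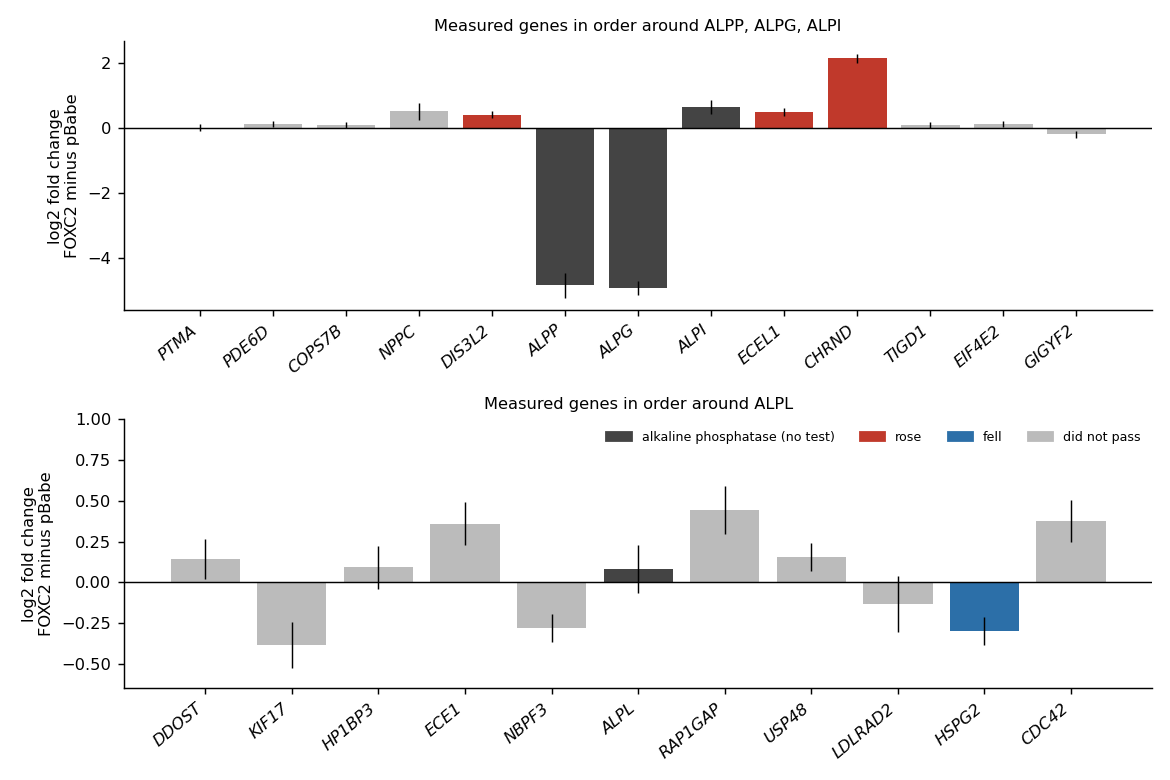
Log2 fold change (FOXC2 minus pBabe; bars, with 1 standard error) of ALPP, ALPG and ALPI (top) and ALPL (bottom) and of the 5 nearest measured named genes on either side, placed by gene order and not by distance. ALPP and ALPG stand at -4.83 and -4.92 beside ALPI at 0.65 and CHRND at 2.13.

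The genes with the pattern most like those of ALPP and ALPG were found among 12558 other named genes. The measure was the root mean square distance between log2 profiles over the 6 arrays, each centred on its own mean. Nearest to ALPP were PSCA at 0.45, EMX2 at 0.48, PI3 at 0.48, COL5A1 at 0.51 and BTG4 at 0.61. Nearest to ALPG were EMX2 at 0.32, COL5A1 at 0.40, PI3 at 0.43, BTG4 at 0.54 and CYP11A1 at 0.65. ALPP and ALPG were 0.57 apart, so 4 other genes lay closer to each of them than they did to each other. The distance takes in the difference between the groups, by which ALPP and ALPG were chosen. The nearest genes were therefore bound to be others with large falls, and nothing is read from that.

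PSCA, a small GPI-anchored surface antigen, read 3280, 3543 and 3509 in pBabe and 53.3, 50.8 and 155 in FOXC2. Like ALPP it was highest among the FOXC2 arrays on replicate 3, as were PI3 and, narrowly, BTG4. EMX2, a homeobox factor of the developing brain and urogenital tract, read 1741, 1888 and 2114 in pBabe and 80.1, 69.97 and 80.01 in FOXC2. PI3, the elastase inhibitor elafin, had mean intensities of 3233 and 168. COL5A1, a fibrillar collagen chain, had 1818 and 71.7, and CYP11A1, the first enzyme of steroid synthesis and active in placenta, 1730 and 137. As with ALPG, most of these FOXC2 values were near the lowest in the table.

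**Figure D4:**
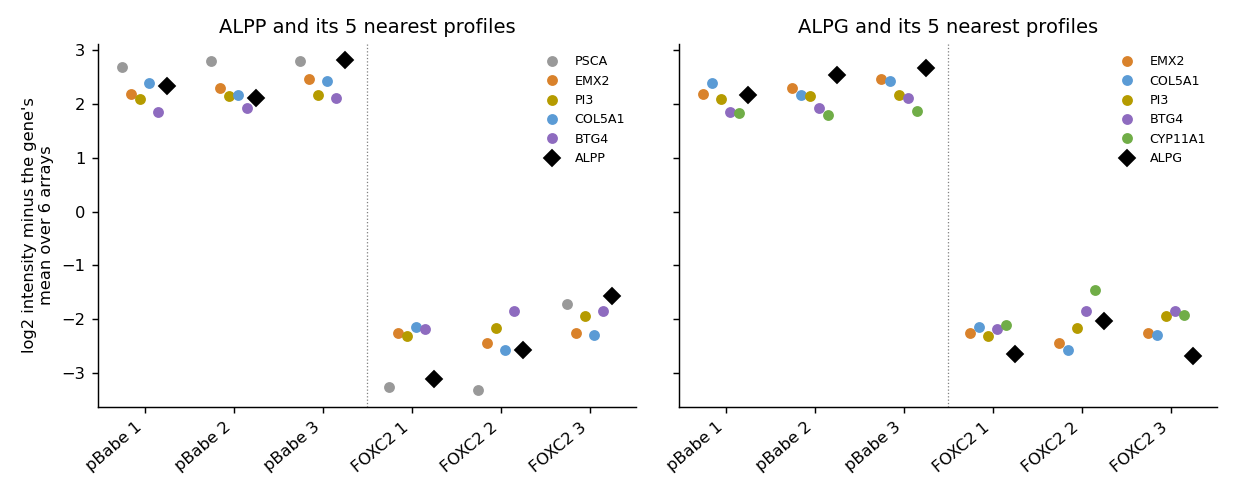
Log2 intensity minus the gene's own mean over the 6 arrays (vertical axis) on each array (horizontal axis) for ALPP (left) and ALPG (right), shown as black diamonds, and the 5 named genes with the smallest root mean square distance to each, shown as coloured dots. On the FOXC2 arrays ALPP, PSCA, PI3 and BTG4 are highest on replicate 3 and ALPG on replicate 2.

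The remaining genes were read through 11 lists tied to alkaline phosphatase biology, with 171 of 270 genes measured. Of these 43 rose and 29 fell. A gene absent from the table is not analysed here.

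Of 31 measured genes that build and remodel the GPI anchor, 3 rose and 2 fell (median log2 fold change 0.02). PGAP4, which adds a side-chain sugar to the anchor, rose by 1.55 ± 0.164 (SE; limma adjusted p 0.00105), from a mean intensity of 685 to 2000.3. PGAP3, which remodels the lipid in the Golgi, rose by 0.74 and PGAP6, a phospholipase that can release some anchored proteins, by 0.56. PIGA, PIGK and GPAA1, which start the anchor and attach it to proteins, had log2 fold changes of -0.24, -0.12 and 0.02 and did not pass. The count of falls was 1 without FOXC2 replicate 1 or 2 or any 1 pBabe replicate. It was also 1 with quantile normalization, median centring, a replicate block, a trended robust prior or array weights. The count of rises was 5 with dim features left out or a trended robust prior.

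Of 39 measured genes of other GPI-anchored proteins, 13 fell and 3 rose, or 33.3% and 7.69%, with a median of -0.08. The shares among all named genes were 14.3% and 14.1%. Besides PSCA at -5.52 ± 0.410 (SE; limma adjusted p 2.50e-04), the adhesion molecule NTM fell by 3.74 and LY6K, a relative of PSCA known from testis and tumours, by 3.01. The folate receptors FOLR1 (-2.88) and FOLR2 (-1.73) and the complement inhibitor CD55 (-1.24) also fell, while the complement inhibitor CD59 stood at 0.00082 and did not pass. NT5E (CD73), which like alkaline phosphatase makes adenosine from AMP, rose by 1.86. The rises numbered 1 without FOXC2 replicate 3 or pBabe replicate 2. PSCA and NTM were known to be among the large falls when this list was made.

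Genes of extracellular nucleotides and adenosine, substrates and products of alkaline phosphatases, changed in 10 of 16 cases. Of these 7 rose and 3 fell, or 43.8% and 18.8% (median 0.19). NT5E rose from a mean intensity of 186 to 676 (log2 fold change 1.86 ± 0.143, SE; limma adjusted p 2.83e-04). Its arrays did not overlap. ENPP1, which makes pyrophosphate and AMP from ATP, rose by 1.42 ± 0.128 (SE; limma adjusted p 5.46e-04), though from a pBabe mean of 73.5 that was near the lowest value in the table. ENTPD2, which degrades ATP, rose by 1.28, the UDP receptor P2RY6 by 1.51 and the adenosine receptor ADORA2B by 1.03, while the adenosine receptor ADORA1 fell by 1.04. With dim features left out 8 of the 16 genes stayed, without NT5E, ENPP1 and P2RY6, and of these 4 rose and 2 fell.

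In the list for phosphate, pyrophosphate and mineralization, where ALPL acts, 3 of 18 rose and 2 fell (median 0.15). ENPP1, the supplier of ALPL's substrate pyrophosphate, was the largest rise. PTH1R, the receptor for parathyroid hormone, fell by 2.38 ± 0.108 (SE; limma adjusted p 4.88e-05), and the collagen COL1A1 fell by 2.22. The pyrophosphate transporter ANKH (0.20), the phosphate importer SLC20A1 (0.26) and the osteoblast factors RUNX2 (0.02) and SP7 (0.41) did not pass. The count of rises was 1 without FOXC2 replicate 2 or 3 or pBabe replicate 1 or 3.

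The smaller enzyme lists held little. Of 2 measured vitamin B6 genes, PLPBP, a pyridoxal phosphate binding protein, rose by 0.39 (limma adjusted p 0.0279) and lost its call without FOXC2 replicate 2 or 3 or any 1 pBabe replicate. Of 4 acid phosphatases, 0 passed by limma and 1 had an unadjusted p under 0.05. That was lysosomal ACP2, at -0.32 ± 0.102 (SE; limma adjusted p 0.0592). ACP2 passed with dim features left out, with a trended robust prior and with array weights, at limma adjusted p of 0.0143, 0.0425 and 0.0480. Without pBabe replicate 3 the 1 gene that passed was ACP4.

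Brush border and enterocyte genes are the usual company of ALPI, and 10 of the 30 listed were measured. Of these 7 rose, the other way from ALPP and ALPG, 0 fell and 3 did not pass. Their median log2 fold change was 1.22, against 0.03 for all named genes. The microvillus proteins VIL1, CDHR2 and MYO1A rose by 3.11, 2.19 and 1.65 (limma adjusted p at most 7.58e-04). The brush border peptidases MME, ACE and ANPEP rose by 1.26, 1.18 and 0.81, and DPP4, at 0.22, did not pass. The list was dim, with a median pBabe intensity of 132, as ALPI was. With dim features left out 3 members stayed, ANPEP, VIL1 and USH1C, and all 3 rose. That filter kept a feature if its higher group mean reached the median of all values. VIL1, at 570 in pBabe and 4912 in FOXC2, stayed through its FOXC2 level alone, so its staying is no check of its rise. The lipid carrier APOA1 (0.18) and the adhesion molecule CEACAM1 (0.20) did not pass.

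Of 14 measured factors that have been studied as regulators of intestinal alkaline phosphatase, 6 rose and 2 fell (median 0.22). CDX2, the intestinal homeobox factor, rose by 1.19 ± 0.125 (SE; limma adjusted p 0.00103), from 1430 to 3256. RXRA, the retinoid X receptor, rose by 0.51 and its partner VDR, the vitamin D receptor, fell by 0.48. KLF4, an activator of the ALPI gene, stood at 0.15 and did not pass. RXRA lost its call without FOXC2 replicate 2 or 3 or pBabe replicate 3, and VDR without FOXC2 replicate 1 or 2. The rises numbered 2 without FOXC2 replicate 2 or 3 and 3 without pBabe replicate 3, and the falls were 0 without FOXC2 replicate 2 and 1 without FOXC2 replicate 1 or 3 or pBabe replicate 1 or 3.

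Trophoblast and placental genes, the normal setting of ALPP, went both ways. Of 25 measured, 10 rose and 4 fell, or 40% and 16% (median 0.25). CYP11A1 fell by 3.66 ± 0.167 (SE; limma adjusted p 4.88e-05) and the trophoblast factor GATA2 by 1.81, and TFAP2C and DLX3, further trophoblast factors, by 0.91 and 0.51. The 5 PSG genes that rose, from PSG5 at 0.82 to PSG2 at 1.37, encode pregnancy-specific glycoproteins that are close copies of each other, so a feature may bind several of them. The hormone subunit CGA rose by 0.63 and HSD11B2, which inactivates cortisol, by 1.34. Many of the risers were dim. With dim features left out 11 of the 25 genes stayed, PSG3 alone of the 5 PSG genes that rose, and of these 3 rose and 4 fell. The rises were PSG3, TFPI2 at 1.05 and CGB8 at 0.54. The falls were CYP11A1, GATA2, TFAP2C and PGF. PGF, at -0.50, had not passed with all features (limma adjusted p 0.0834), and DLX3 was left out as dim. PSG3 and CYP11A1 stayed only through the group where each was high.

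Germ cell genes, the setting of ALPG, were also split. Of 11 measured, 4 fell and 4 rose (median -0.40). SALL4 and LIN28A, a transcription factor and an RNA-binding protein of early germ cells and stem cells, fell by 2.498 and 2.02, and TFAP2C and the tumour antigen MAGEA4 by 0.91 and 0.70. SOX17 rose by 1.32, SOX2 by 1.01, UTF1 by 0.81 and POU5F1 by 0.69. Without pBabe replicate 3 the rises numbered 2, and SOX17 lost its call there. With dim features left out 2 of the 11 genes stayed, LIN28A and TFAP2C, and these 2 fell. The 4 genes that rose were not among them, and neither were SALL4 and MAGEA4, which fell. ALPP and ALPG were thus low in FOXC2 cells beside some genes of their normal tissues that fell and others that rose.

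Among 7 measured markers of osteoblasts, neutrophils and hepatocytes, cells known for high ALPL, 1 rose and 0 fell (median 0.32). TTR, a hormone carrier from liver, rose by 0.72 (limma adjusted p 0.0355) and lost its call when FOXC2 replicate 1 or 2 or any 1 pBabe replicate was left out. Without pBabe replicate 2 the count was 2, the osteoblast genes BGLAP and SP7. The list was dim, with a median pBabe intensity of 124.

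**Figure D5:**
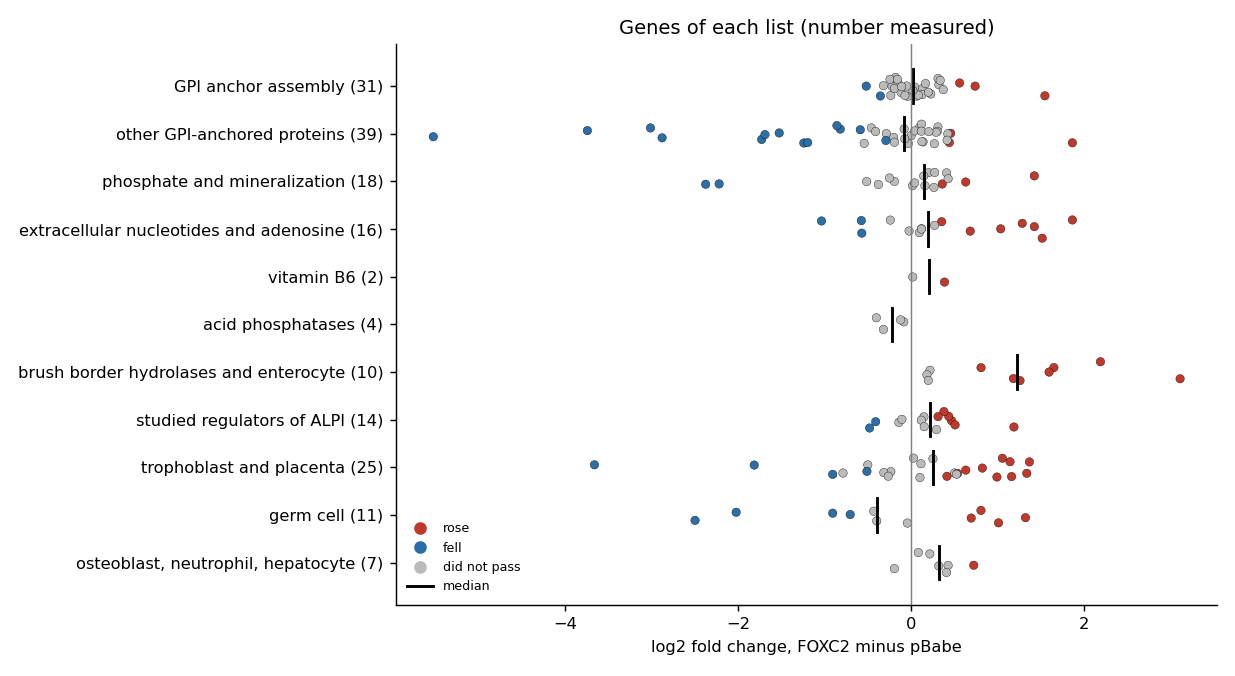
Log2 fold change (FOXC2 minus pBabe, horizontal axis) of each measured gene in 11 lists (vertical axis, number measured in brackets), with genes that rose in red, that fell in blue and that did not pass in grey, and a bar at each median. Falls reach -5.52 among GPI-anchored proteins, and the brush border list has 7 rises and 0 falls.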

How the data were processed

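The authors deposited 1 table of normalised intensities on a linear scale for 33497 features and 6 arrays, made with RMA per the submitters' processing notes. The version, the background settings, the probe sequences, detection calls and scan batches were not used here. As usually run, RMA makes array distributions alike, so a shift shared by all transcripts would not be seen. Features below 50.002 on any array are not in the table. Features were named from the platform annotation, with symbols updated by gene identifier through a RefSeq table of GRCh38.p14. Of the features, 13730 had 1 symbol, 0 several and 19767 none here, and the brightest feature stood for a gene.

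Intensities were taken to log2 with no offset or filter and fitted in limma 3.58.1 (lmFit, eBayes; R 4.3.3), with Benjamini-Hochberg adjustment over all 33497 features and a threshold of 0.05. The p-values cover the spread between cultures only, and 3 arrays per group limit the precision. The genes and the lists were chosen with earlier results of these data known. By rule the text named every alkaline phosphatase feature, up to 3 passing genes per list with the largest change and separate groups (or the 1 with the lowest p), 5 neighbours on either side and the 5 nearest profiles. Further genes of a list were named after their values were seen. Promoter windows were aligned with Biopython 1.88. Alternatives were quantile normalization, median centring, a replicate block, an offset of 16, a dim filter, a trended robust prior, array weights, each array left out, and the mean of a gene's features. The dim filter kept a feature if its higher group mean reached the median of all values. A gene could thus stay through the group where it was high, and its staying is then no check of its change. The fit was tested on simulated data for FOXC2 against pBabe over 33497 features. Of 50 features per size, 84% were called at a log2 change of 2, 60% at 1 and 4% at 0.5. In the simulation 33297 features were given no change, whereas 26.3% of features passed in the real data. The adjusted threshold is stricter where fewer features change, so these shares are not the power of the real fit.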

Additional observations from a re-analysis of the deposited data

How the results depend on the processing

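The log2 fold changes of ALPP, ALPG, ALPI and ALPL kept their signs and moved by less than 1 pooled SD under every setting that could move them. The replicate block, the dim filter, the trended robust prior and the mean of a gene's features, 1 for each of these genes, could not. ALPI was not measured once dim features were left out, and ALPP and ALPG stayed there through their pBabe levels alone. ALPI lay between 0.41 and 0.83 with each array left out. Same-numbered cultures did not vary together (correlations of deviations across features -0.10, -0.12 and -0.06), so the numbers were not taken as pairs. With the replicate block 2917 features rose, against 4450, and 3043 fell, against 4369, and the fold changes of the 4 genes were the same by construction. With the block ECEL1 (limma adjusted p 0.0510), DIS3L2 (0.0832), HSPG2 (0.125), PLPBP (0.0739), RXRA (0.0576) and TTR (0.0785) lost their calls and RAP1GAP (0.0487) gained one, and the rises fell from 6 to 2 among factors studied for ALPI and from 3 to 1 among other GPI-anchored proteins. With each array left out the rises lay between 2732 (without FOXC2 replicate 3) and 3518. Over all lists 25 genes rose with dim features left out, where fewer genes are tested, against 43, and between 28 (without FOXC2 replicate 2) and 37 with each array left out. PTMA, near 0, turned to 0.012 with median centring and ranged from -0.063 to 0.069 with arrays left out. HP1BP3 ranged from -0.040 to 0.17 and LDLRAD2 from -0.25 to 0.033. For 46 named genes the settings other than leaving out an array gave 309 values, of which 285 had the same sign and call, 9 lost the call, 14 gained it and 1 turned sign. Leaving out arrays gave 276 values, of which 238 had the same sign and call, 32 lost the call, 2 gained it and 4 turned sign. The cause was not tested. Without detection calls, folds of features near the lowest intensity are limited in precision.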
